A study of Mus musculus with 6 samples.

Results

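The transcripts of 10 cytokine genes were followed here: the colony-stimulating factors Csf1, Csf2 and Csf3, the IL-6 family members Il6 and Lif, the IL-1 family members Il1a, Il1b, Il1rn and Il33, and Tslp. They were taken by symbol, and all 10 were found among the 24421 genes of the count table. RNA was sequenced from 4T1-tetL1(GLucAI) cells, a mouse breast carcinoma line of strain background BALB/cfC3H, to ask what expression of an induced LINE-1 (L1) element does to transcription in a tumor cell. There were 3 untreated libraries, whose treatment tag reads vehicle, and 3 libraries labelled doxycycline, from cells given the drug at 400 ng/mL for 48 h. Both groups carried the same integrated cassette. In it a doxycycline-responsive promoter drives a recoded mouse L1 with a Gaussia luciferase retrotransposition readout and, in the other direction, firefly luciferase. A constitutive promoter of the same cassette drives the Tet-On transactivator and blasticidin resistance. The cells were a selected stable population and not a clone. Cells without the cassette were not analysed here, so doxycycline itself and the L1 it switches on cannot be told apart. Cassette transcripts were not analysed here either, so the labels were not checked against the induced gene.

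Colony-stimulating factors are secreted proteins that make myeloid progenitors divide and mature, CSF1 towards macrophages, CSF3 towards neutrophils and CSF2 towards both. IL-6 and LIF signal through receptor complexes that share the gp130 chain and act on STAT3, whereas IL-1α, IL-1β and IL-33 act through receptors that share IL1RAP and lead to NF-κB. TSLP is an epithelial cytokine that, like IL-33, is known for acting on dendritic cells and type 2 lymphocytes, and carcinoma cells can recruit myeloid cells through several of these factors.

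In the libraries labelled doxycycline 4 of the 9 cytokine genes that could be tested were lower and 0 were higher. Il33 fell by 42.4%, Csf2 fell by 39.6%, Tslp fell by 26.2% and Csf1 fell by 12.8%. Csf3, Lif, Il1a, Il1b and Il6 did not pass the threshold, and Il1rn was too low to be tested. The count stood against a background of 2.16% of the 13084 genes tested that were called lower, 0.925% called higher and 3.09% called either way by edgeR's quasi-likelihood test at an adjusted p under 0.05. The log2 fold change was below 0 for 8 of the 9, with a median of -0.27 over the 9 and 0.00249 over all tested genes. For 6 of the 9 every untreated value lay on the same side of every doxycycline value, as for 21.3% of all tested genes. The summed level of the 10 genes was 617.4 to 643.2 CPM (counts over TMM-scaled library totals) in untreated libraries and 540.7 to 561.7 CPM in libraries labelled doxycycline.

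**Figure D1:**
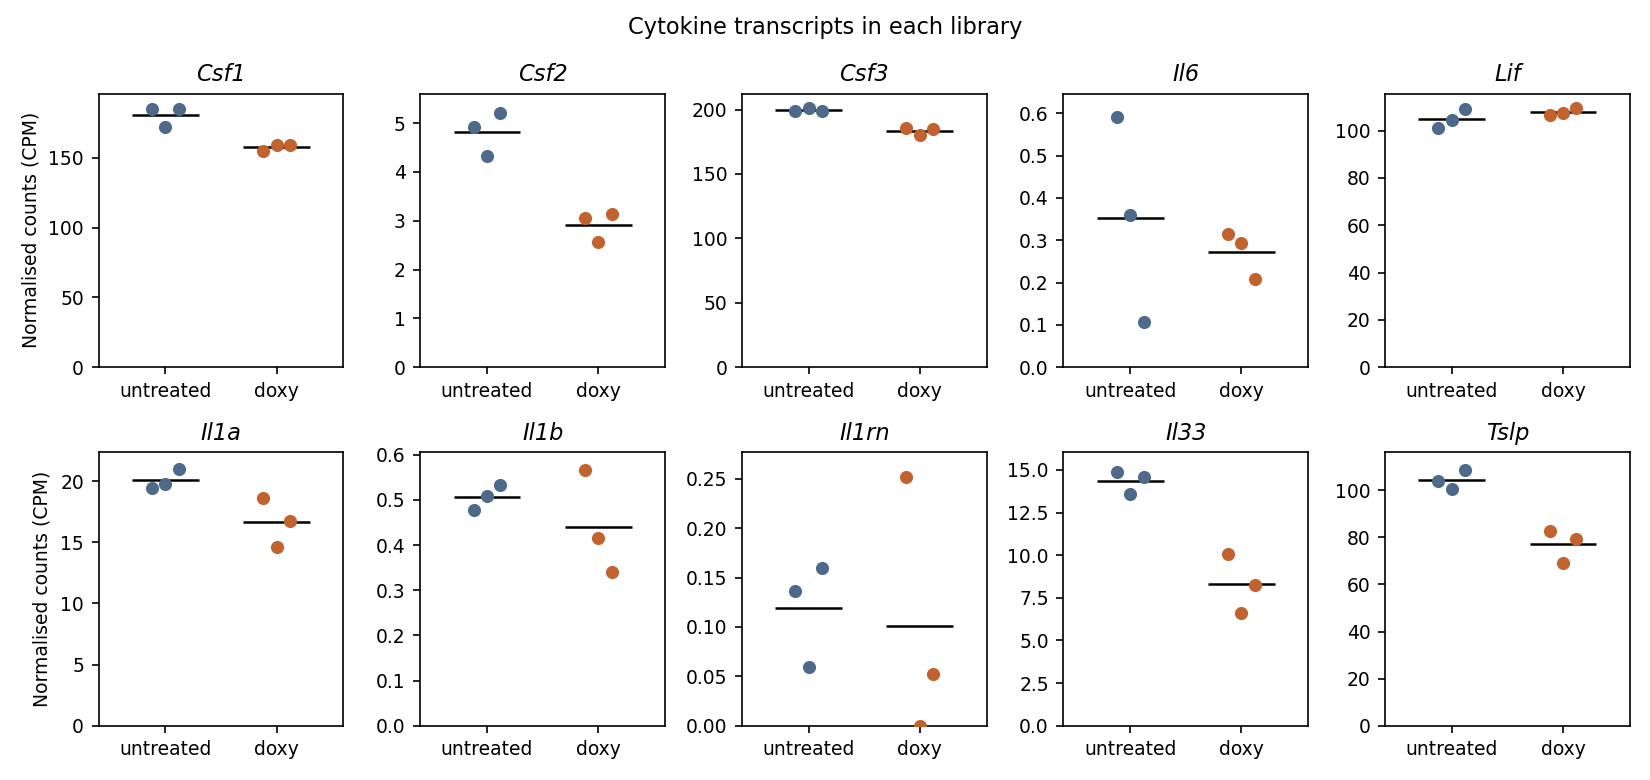
Normalised counts (CPM, linear axis from 0) of the 10 cytokine genes, with 1 point per library (blue untreated, orange labelled doxycycline) and a bar at the mean of 3. The 2 groups are apart for Csf1, Csf2, Csf3, Il1a, Il33 and Tslp and overlap for Il6, Lif, Il1b and Il1rn.

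Library totals ran from 31653464 to 43631312 counts, and 15418 to 15685 genes had a count. A floor of 3 counts was 0.0683 to 0.0943 CPM per library, which covers counting error only. The markers of the breast carcinoma label were present: the keratins Krt8 and Krt18 were at 409.6 ± 10.3 and 632.9 ± 6.99 CPM in untreated libraries (SD, n = 3), and the adhesion molecule Epcam at 33.15 ± 1.36 CPM. The 8 epithelial markers summed to 1837 to 1922 CPM in untreated libraries and 1785 to 2020 CPM in the others, with Krt19 called (lower, log2 fold change -0.31, edgeR adjusted p = 0.00782). Several defining markers of other cells were at or near 0. The pan-leukocyte gene Ptprc had counts of 10, 5 and 21 (untreated) and of 5, 4 and 11 (labelled doxycycline). Cd3e of T cells had 0 counts in 5 of the 6 libraries and 2 in the other, and the macrophage gene Adgre1 had 0 in every library. The collagen gene Col1a1 and the endothelial gene Pecam1 had 2 to 20 and 4 to 23 counts. The 10 myeloid markers in the table summed to 26.85 to 29.77 CPM in untreated libraries and 22.02 to 24.36 in the others, mostly Cd14 (called lower) and Cd68. The 9 fibroblast and endothelial markers summed to 36.09 to 39.0 and 28.2 to 29.82 CPM, mostly Pdgfra (called lower), and the 6 T cell markers to 2.248 to 2.696 and 1.981 to 3.134 CPM, mostly the kinase gene Lck with 56 to 103 counts per library beside 2 to 26 for Cd28. The part of Cd14 and Pdgfra expressing cells in the results was not tested. In bulk RNA, fewer cells expressing a gene and less of its RNA per cell cannot be told apart.

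To show where transcription of the genes that fell begins, the 250 bases before the RefSeq start of Csf1, Csf2 and Il33 are printed beside those of Lif, which did not pass the threshold (GRCm38.p6, 5′ to 3′ on the strand of the gene). The Csf1 window is chr3:107760470-107760719 (minus strand) and the Csf2 window chr11:54249900-54250149 (minus strand, 232 bases from the start in GENCODE). The Lif window is chr11:4257318-4257567 (plus strand). RefSeq gives Il33 a pair of starts, with windows chr19:29924863-29925112 and, 20676 bases into the gene, chr19:29945540-29945789 (both plus strand). Capitals mark matches, on either strand, to the AP-1 letters TGANTCA (N being C or G), to a loose κB pattern GGGNNNNNCC or to the TATA box letters TATAAA, and overlapping matches run together.
Csf1: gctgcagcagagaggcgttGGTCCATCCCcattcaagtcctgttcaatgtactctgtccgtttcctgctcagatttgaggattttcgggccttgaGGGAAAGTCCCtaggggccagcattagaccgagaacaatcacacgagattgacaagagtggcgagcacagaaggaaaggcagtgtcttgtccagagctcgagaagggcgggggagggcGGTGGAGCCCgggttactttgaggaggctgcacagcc
Csf2: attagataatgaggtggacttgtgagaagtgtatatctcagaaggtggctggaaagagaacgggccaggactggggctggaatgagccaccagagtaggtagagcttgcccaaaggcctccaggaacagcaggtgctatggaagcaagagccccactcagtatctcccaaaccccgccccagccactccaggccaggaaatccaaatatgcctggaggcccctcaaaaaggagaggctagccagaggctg
Il33, first start: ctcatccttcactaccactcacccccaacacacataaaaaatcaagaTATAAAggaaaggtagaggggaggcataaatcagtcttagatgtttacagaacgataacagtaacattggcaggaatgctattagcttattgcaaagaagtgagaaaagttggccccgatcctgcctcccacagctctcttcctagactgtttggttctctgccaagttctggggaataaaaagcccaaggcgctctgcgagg
Il33, second start: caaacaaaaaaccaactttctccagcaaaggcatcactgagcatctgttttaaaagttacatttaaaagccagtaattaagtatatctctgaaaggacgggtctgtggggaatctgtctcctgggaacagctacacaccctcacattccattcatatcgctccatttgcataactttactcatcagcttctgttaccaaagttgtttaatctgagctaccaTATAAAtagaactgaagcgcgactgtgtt
Lif: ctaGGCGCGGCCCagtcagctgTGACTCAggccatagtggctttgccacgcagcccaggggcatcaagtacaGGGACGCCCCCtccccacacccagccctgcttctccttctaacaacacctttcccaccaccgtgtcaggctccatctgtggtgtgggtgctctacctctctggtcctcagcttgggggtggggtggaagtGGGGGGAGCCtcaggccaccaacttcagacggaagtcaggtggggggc
The Csf1 window held 4 κB matches, of which 1 pair overlapped (155 to 146 and 154 to 145 bases before the start). The Lif window held 1 AP-1 match and 4 κB matches, again with 1 overlapping pair (178 to 169 and 177 to 168 bases before the start). The Csf2 window held none of the 3 patterns. Each Il33 window held 1 TATAAA, 203 to 198 bases before the first start and 29 to 24 bases before the second. Of the 32841 RefSeq promoter windows of this length in the table, 4.46% held the AP-1 letters, 45.8% the κB pattern and 12.4% TATAAA. Of the windows printed, those of Csf1 and Lif had κB letters and those of Csf2 and Il33 had none. The RefSeq start of Csf2 lies 232 bases before the GENCODE start. The bases just before the GENCODE start of Csf2 were therefore not read, and the lack of matches covers the printed window only. Windows were read for 8 of the 10 genes, not for Csf3 or for Tslp, which also fell. Of those not printed, the Il1a window held an AP-1 match 12 to 6 bases and TATAAA 32 to 27 bases before the start, Il1b TATAAA at 31 to 26 bases, and Il6 an AP-1 match at 249 to 243 bases beside 3 κB matches. The first of 3 Il1rn windows held 1 AP-1 and 1 κB match, the second none of the 3 patterns and the third 1 κB match. A match of letters is only a description.

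Levels per length placed the genes across the range of the transcriptome (CPM per kilobase of exon, exons from GENCODE M21). In untreated libraries Csf3 was highest at 141 ± 1.09 CPM per kilobase (SD, n = 3), followed by Tslp at 78.5 ± 3.04, Csf1 at 34.2 ± 1.4 and Lif at 24.1 ± 0.965. These genes lay above 98.1%, 96.5%, 89.9% and 84.8% of the 12605 tested genes with a length. A middle group held Il1a at 10.2 ± 0.406 CPM per kilobase, Csf2 at 6.02 ± 0.568 and Il33 at 4.97 ± 0.235, above 65.1%, 50.9% and 46.2% of genes. Il1b, Il6 and Il1rn were near the bottom, at 0.266 ± 0.0147, 0.145 ± 0.0999 and 0.0215 ± 0.00947 CPM per kilobase. The order of the 10 was the same in the libraries labelled doxycycline and with the longest transcript as length. In untreated libraries no neighbours in this order had overlapping ranges, although Csf2 (5.39 to 6.51) and Il33 (4.7 to 5.15) lay close. In the libraries labelled doxycycline these 2 did overlap, at 3.21 to 3.92 for Csf2 and 2.28 to 3.5 for Il33. The transcripts of the neutrophil factor Csf3 and the epithelial cytokine Tslp were thus the most abundant of the group. IL-1β and IL-6 transcripts were scarce in these cultures, at 13 to 21 and 4 to 26 counts per library.

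**Figure D2:**
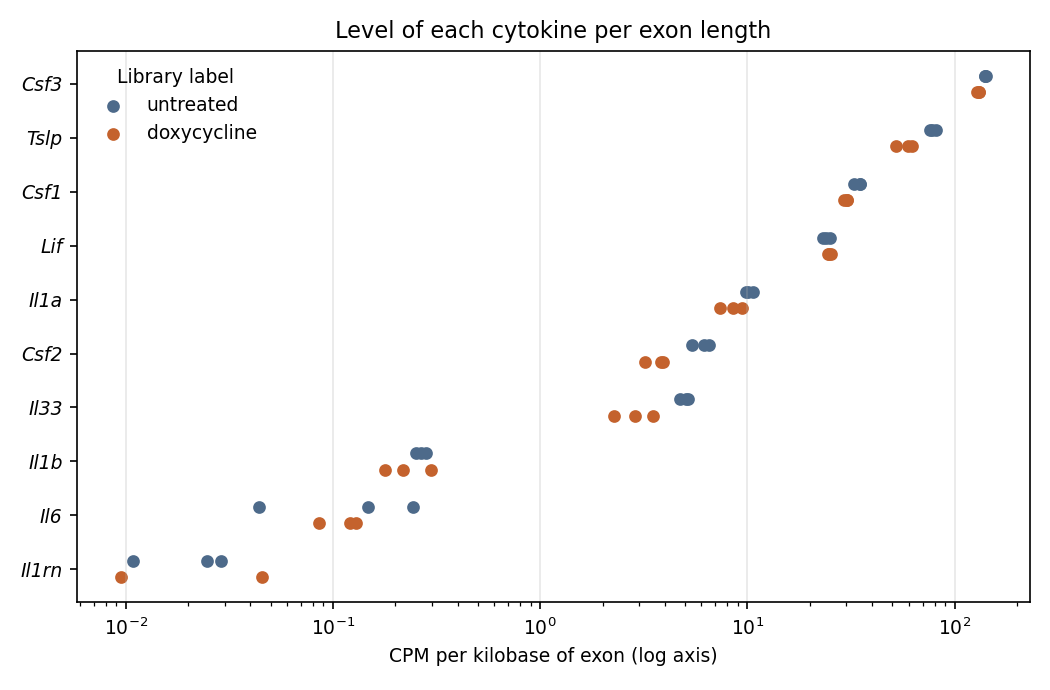
Level of each cytokine gene as CPM per kilobase of exon (log axis), with 1 point per library (blue untreated, orange labelled doxycycline), ordered by the untreated mean. Levels run from 141 for Csf3 to 0.0215 for Il1rn in untreated libraries, and the Il1rn library with 0 counts (doxycycline replicate 2) has no point on this axis.

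Among the colony-stimulating factors, Csf2 (GM-CSF, a factor for granulocytes, macrophages and dendritic cells) had the largest change. Csf2 lies at chr11:54247271-54249667 (minus strand). It had 216, 144 and 195 counts in untreated replicates 1 to 3 and 97, 105 and 120 in doxycycline replicates 1 to 3, or 4.92, 4.32 and 5.21 against 3.05, 2.57 and 3.13 CPM. Every untreated library was above every library labelled doxycycline. Csf2 fell by 0.73 on the log2 scale (SE 0.162, 95% interval -1.06 to -0.39, edgeR adjusted p = 0.013). The spread between libraries was near that of counting alone, with coefficients of variation of 9.44% and 10.4% beside 7.35% and 9.65% from counting. The call was lost without untreated replicate 1 (adjusted p = 0.0656) and without untreated replicate 3 (adjusted p = 0.1), with log2 fold changes of -0.71 and -0.67. In GENCODE an exon of Gm12223 overlaps Csf2 on the other strand. Gm12223 was not analysed here, and the strand setting of the counting is not given in the sources used here.

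The Csf2 transcript stood out by its 3′ untranslated region, which is known for AU-rich elements bound by decay factors. It held 9 copies of the pentamer ATTTA in 317 bases, or 28.4 per kilobase. Only 3 of the 11771 tested genes with an annotated 3′ untranslated region had a higher density, and the median was 1.2 per kilobase. Copies of the nonamer ATTTATTTA numbered 5 in Csf2, and 14 of those genes (0.119%) had at least 5. Densities in the other cytokine genes were lower, 8.97 per kilobase in Csf3, 8.71 in Il1b, 6.0 in Il6, 2.92 in Tslp, 2.72 in Il1a, 2.2 in Lif, 1.89 in Csf1, 1.79 in Il33 and 0 in Il1rn. Csf2, with the highest density, had a log2 fold change of -0.73, and Il33, with the lowest density above 0, had -0.80. Csf3, with the second highest density, was at -0.12 and did not pass the threshold. Whether density and fold change are related was not tested.

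Csf1 (M-CSF, the macrophage growth factor, at chr3:107741048-107760469, minus strand) was abundant and fell a little. It was at 185.1, 172.1 and 184.7 CPM in untreated replicates 1 to 3 and at 154.5, 159.3 and 159.0 CPM in doxycycline replicates 1 to 3, so the groups did not overlap. Csf1 fell by 0.20 on the log2 scale (SE 0.0462, 95% interval -0.29 to -0.10, edgeR adjusted p = 0.0181). This call depended on the libraries used. Its adjusted p was 0.134 without untreated replicate 1, 0.164 without untreated replicate 3 and 0.0695 without doxycycline replicate 3. Relative to Csf1 in the same library, Csf2 was at log2 count ratios of -5.23, -5.31 and -5.15 in untreated libraries. In the others the ratios were -5.66, -5.95 and -5.66, a difference of -0.52. Counts were not divided by length (800 exon bases for Csf2 and 5281 for Csf1). The difference between groups does not depend on length, but the ratios themselves do not give relative abundance. The groups were fully apart, and the 2-sided exact permutation p of 0.1 is the smallest that 3 against 3 libraries can give.

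Csf3 (G-CSF, the neutrophil growth factor, at chr11:98701263-98703629, plus strand) did not pass the threshold. It was at 198.6, 201.3 and 198.7 CPM in untreated libraries and at 185.3, 180.3 and 184.6 CPM in libraries labelled doxycycline. The groups did not overlap, and both were tight (means 199.6 ± 1.53 and 183.4 ± 2.71, SD, n = 3). The log2 fold change was -0.12 (SE 0.0434, 95% interval -0.21 to -0.03), with an edgeR adjusted p of 0.146. It was not called under any alternative tried, with adjusted p from 0.0933 to 0.376.

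Of the IL-6 family pair, Lif was expressed and Il6 was hardly detected. Lif (leukemia inhibitory factor, which acts on gp130 with LIFR, at chr11:4257557-4272514, plus strand) was at 100.9, 104.5 and 109.3 CPM in untreated libraries and at 106.4, 107.3 and 109.7 CPM in libraries labelled doxycycline. Its values overlapped, and the 95% interval of its log2 fold change was -0.06 to 0.14 (estimate 0.04, edgeR adjusted p = 0.748). This interval leaves out a fall of the size seen for Csf1, Csf2, Il33 or Tslp. Il6 (chr5:30013114-30019981, plus strand) had counts of 26, 12 and 4 (untreated) and of 10, 12 and 8 (labelled doxycycline). The highest and the lowest of these values were both untreated. Its log2 fold change of -0.41 had a 95% interval of -1.55 to 0.74 (adjusted p = 0.78), so a fall or a rise within this range was compatible with the counts. Without untreated replicate 1 the estimate turned to 0.24.

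In the IL-1 family Il33 was the gene that fell. IL-33 is a nuclear alarmin that is released from damaged epithelial cells and acts through IL1RL1 (ST2), and its gene is at chr19:29925114-29960718 (plus strand). It had 653, 453 and 546 counts in untreated replicates 1 to 3 and 321, 269 and 316 in doxycycline replicates 1 to 3, or 14.87, 13.58 and 14.58 against 10.09, 6.59 and 8.25 CPM. Every untreated library was above the others, and the untreated libraries were the tighter group. Il33 fell by 0.80 on the log2 scale (SE 0.125, 95% interval -1.06 to -0.54, edgeR adjusted p = 0.000558). It was rank 133 from the lowest of the 13084 log2 fold changes. The call was made with each library left out in turn, and the value was -0.95 when doxycycline replicate 1 was dropped and -0.65 when doxycycline replicate 2 was.

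Il1a (IL-1α, an alarmin active as its precursor, at chr2:129299610-129309972, minus strand) missed the threshold. It was at 19.49, 19.81 and 21.01 CPM in untreated libraries and at 18.61, 14.62 and 16.74 CPM in the others, with no overlap. Its log2 fold change was -0.27 (SE 0.0925, 95% interval -0.47 to -0.08, edgeR adjusted p = 0.124). It was called only without doxycycline replicate 1, the highest library of its group (adjusted p = 0.0282). An antisense transcript, Gm14023, overlaps exons of Il1a and had 24 to 38 counts per library, beside 592 to 856 for Il1a.

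Il1b (IL-1β, which is cut by caspase-1 before release, at chr2:129364570-129371139, minus strand) and Il1rn (the receptor antagonist, at chr2:24336853-24351494, plus strand) had few counts. Il1b had counts of 21, 17 and 20 (untreated) and of 18, 17 and 13 (labelled doxycycline), and its log2 fold change of -0.21 had a 95% interval of -1.07 to 0.64 (edgeR adjusted p = 0.854). An antisense gene, Il1bos, overlaps Il1b exons and had 6 to 13 counts per library, which is not far below Il1b itself, so Il1b counts are uncertain. Il1rn had counts of 6, 2 and 6 (untreated) and of 8, 0 and 2 (labelled doxycycline) and was left out by the filter. The balance of agonist to antagonist was therefore poorly measured. Ratios here are of counts, not corrected for length. The log2 ratio of Il1a to Il1rn was 7.34 ± 0.619 in untreated libraries and 8.12 ± 2.05 in the others (SD, n = 3, exact permutation p = 0.7). That of Il1b to Il1rn was 2.06 ± 0.645 and 2.89 ± 2.04 (exact permutation p = 0.7). Both differences changed sign without doxycycline replicate 2, the library with 0 Il1rn counts.

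Tslp (thymic stromal lymphopoietin) had the smallest adjusted p of the group. The gene is at chr18:32815383-32819797 (plus strand). It had 4558, 3365 and 4077 counts in untreated replicates 1 to 3 and 2630, 2831 and 3044 in doxycycline replicates 1 to 3, or 103.8, 100.8 and 108.8 against 82.69, 69.31 and 79.5 CPM. All untreated libraries were above all libraries labelled doxycycline. Tslp fell by 0.44 on the log2 scale (SE 0.0604, 95% interval -0.56 to -0.31, edgeR adjusted p = 0.000128). It was called with each library left out in turn, with values from -0.49 to -0.37 and adjusted p of at most 0.00448. For Il33 and Tslp alike, doxycycline replicate 2 was the lowest library and doxycycline replicate 1 the highest of its group.

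**Figure D3:**
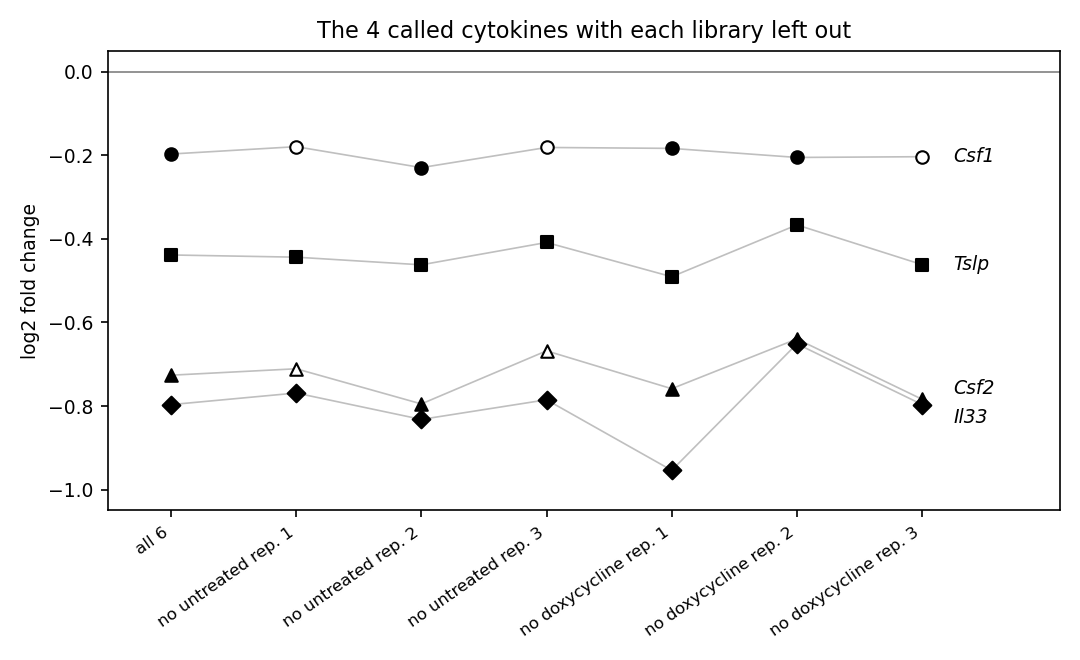
Log2 fold change (libraries labelled doxycycline against untreated) of the 4 called cytokine genes with all 6 libraries and with each library left out in turn. Filled markers have an edgeR adjusted p under 0.05 and open ones do not: Il33 and Tslp are filled throughout, Csf1 is open in 3 of 6 and Csf2 in 2 of 6.

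The receptors through which these cytokines act were then compared by level and change. Of 14 receptor genes 8 could be tested, 1 was lower and 0 were higher (median log2 fold change -0.06). Among all tested genes 2.16% were called lower and 0.925% higher. The shared IL-6 family chain Il6st (gp130) was highest at 14.2 ± 0.424 CPM per kilobase in untreated libraries, with a log2 fold change of -0.13 (edgeR adjusted p = 0.155). The IL-1 receptor chains Il1rap and Il1r1 followed at 4.84 ± 0.158 and 4.36 ± 0.358, then Il6ra at 3.33 ± 0.18 and the TSLP receptor chain Crlf2 at 3.19 ± 0.459. Lifr was at 0.162 ± 0.0328 CPM per kilobase. The decoy receptor Il1r2, Csf1r, the IL-33 receptor Il1rl1 and Csf2rb2 were at 0.0962, 0.0657, 0.0495 and 0.0357. Il7r and Csf2rb had at most 2 counts in a library, Csf3r had 2 counts in 1 library, and Csf2ra had 0 counts in all 6, which allows up to 0.0683 to 0.0943 CPM. The cells thus carried transcripts for both IL-1 receptor chains and for gp130 with IL-6 receptor, while transcripts of the receptors for CSF2 and CSF3 were at or under the floor.

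Il1r1, the signalling IL-1 receptor, was at 27.96, 29.88 and 25.33 CPM in untreated libraries and at 21.73, 21.96 and 24.08 CPM in libraries labelled doxycycline. It fell by 0.29 on the log2 scale (SE 0.0797, edgeR adjusted p = 0.0465). The call was close to the threshold: it was lost in 5 of 6 fits with a library left out and with limma voom (adjusted p = 0.059).

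Other ligands and regulators of the same pathways changed in small numbers. Of 26 related ligands 11 could be tested, and edgeR, DESeq2 and limma voom each called 0 lower and 1 higher (median log2 fold change -0.02, 1 of 11 at an unadjusted edgeR p under 0.05). Over all 13084 tested genes edgeR called 2.16% lower and 0.925% higher, and 2119 had an unadjusted p under 0.05. Without the filter edgeR also called Thpo lower (adjusted p = 0.0312), a gene with 2 to 26 counts per library. The ligand that was higher was Clcf1, an IL-6 family ligand, at 29.19, 31.56 and 30.75 CPM in untreated libraries and 40.12, 36.85 and 36.38 CPM in the others. It rose by 0.31 on the log2 scale (SE 0.0677, edgeR adjusted p = 0.0115), and the call was lost in 2 of 6 fits with a library left out. Its family members Il6 and Lif did not pass the threshold, but the 95% interval of Il6 (-1.55 to 0.74) includes the change of Clcf1. Il11, of the same family, had a log2 fold change of 0.31 (95% interval -0.155 to 0.78) and was not called. Of the 11 tested ligands 5 had a log2 fold change above 0 and 6 below. Kitl (stem cell factor), the highest of the list, had a log2 fold change of -0.08 (95% interval -0.23 to 0.06).

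Factors that control the decay of cytokine transcripts held 2 of the remaining calls. Of 13, all tested, 2 were called lower and 0 higher (median log2 fold change -0.03), beside 2.16% and 0.925% of all tested genes. Zfp36l1, which binds AU-rich elements and promotes decay, was at 102.1, 95.15 and 98.83 CPM in untreated libraries and 83.76, 74.13 and 78.19 CPM in the others. It fell by 0.33 on the log2 scale (SE 0.0549, edgeR adjusted p = 0.00102), a call made with each library left out in turn. Zc3h12a (Regnase-1), an RNase that cuts cytokine transcripts, fell by 0.31 (SE 0.0751, adjusted p = 0.0217), a call lost in 5 of 6 fits with a library left out. Khsrp and Zfp36l2, the most abundant of the list, had log2 fold changes of -0.0026 (95% interval -0.09 to 0.09) and -0.06 (95% interval -0.16 to 0.03). The 2 called decay factors and the 4 called cytokine genes were lower in the libraries labelled doxycycline. Not all genes of this list went this way. Of the 13, 4 had an unadjusted edgeR p under 0.05, as had 2119 of the 13084 tested genes. Among these 4, Zfp36 and Arid5a were higher and not called. Their log2 fold changes were 0.23 (95% interval 0.07 to 0.39, edgeR adjusted p = 0.116) and 0.17 (95% interval 0.02 to 0.31, adjusted p = 0.243).

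In gp130 signalling 1 of 18 genes was called lower and 0 higher (median log2 fold change -0.05), beside 2.16% and 0.925% of all tested genes. This was Jak2, a kinase used by gp130 and by the CSF2 and TSLP receptors, at 166.0, 168.2 and 164.6 CPM in untreated libraries and 143.3, 132.5 and 129.5 CPM in the others. It fell by 0.30 on the log2 scale (SE 0.0481, edgeR adjusted p = 0.000682) and was called with each library left out in turn. Ptpn11 (SHP2), the most abundant of the list, had a log2 fold change of 0.03 (95% interval -0.06 to 0.13). In IL-1 signalling 14 of 16 genes were tested, and edgeR called 0 either way, with 1 at an unadjusted p under 0.05 (median log2 fold change -0.05). Its most abundant genes, the kinase Map3k7 (TAK1) and its adaptor Tab2, had log2 fold changes of 0.01 and -0.06. Among the 16 genes for processing and release, 14 were tested and edgeR again called 0 (median log2 fold change -0.07). Of these 14, 4 had an unadjusted p under 0.05. Over all 13084 tested genes, 2119 had an unadjusted edgeR p under 0.05. DESeq2 and limma voom also called 0 in both lists, and edgeR without the filter called Casp4 lower (adjusted p = 0.0497) and Pycard higher (adjusted p = 0.0463) in the release list. The most abundant were Capn2, a calpain that cuts IL-1α, and the sheddase Adam10, with log2 fold changes of -0.10 (95% interval -0.195 to -0.01) and -0.04 (95% interval -0.145 to 0.06).

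**Figure D4:**
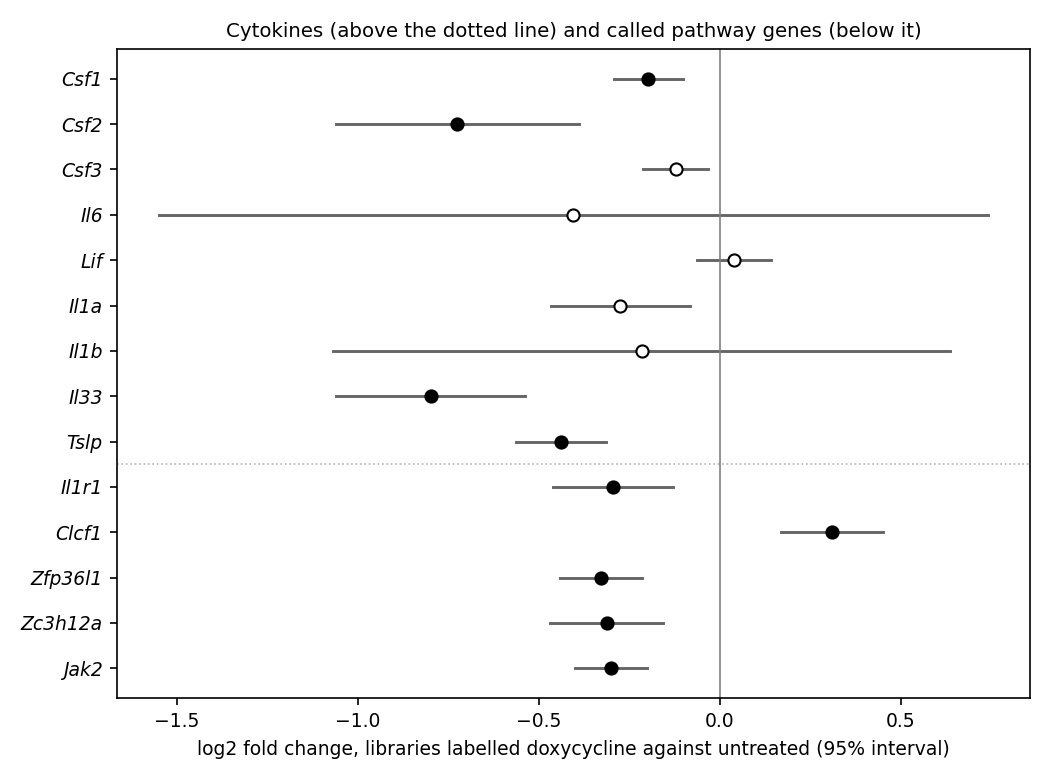
Log2 fold change with 95% interval (libraries labelled doxycycline against untreated) of the 9 tested cytokine genes above the dotted line and of the called genes of the pathway lists below it. Filled points have an edgeR adjusted p under 0.05: Csf1, Csf2, Il33 and Tslp lie between -0.80 and -0.20, Lif lies at 0.04, and Clcf1 at 0.31 is the only filled point above 0.

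The genes whose levels ran most like those of the 4 called cytokine genes were listed by Pearson's r of log2 CPM over the 6 libraries, among 8780 or 8781 genes with a mean of at least 10 CPM. For Il33 these were Zfp654, Tcf4 and Mgst1 (r = 0.996, 0.995 and 0.994), and for Tslp Efna5 and Zfp654 (r = 0.994 and 0.993). For Csf2 they were Ugdh, Sox9 and Sat1 (r = 0.996, 0.996 and 0.994) and for Csf1 Tagln2, Snrpc and Klk10 (r = 0.998, 0.996 and 0.993). The 6 points of each gene fall into the 2 groups and share library and depth. Zfp654 was on the lists of both Il33 and Tslp, and it was itself called lower (log2 fold change -0.32, edgeR adjusted p = 0.0176).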

How the data were processed

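Ribosome-depleted total RNA was sequenced from 6 libraries. The authors mapped the reads to mm10/GRCm38 with STAR, counted them per gene with featureCounts (Subread 1.6.2 is in the submitters' processing notes) and deposited raw counts, with replicates kept apart. The strand setting is not given in the sources used here. The study calls the replicates biological triplicates, while the labels do not say that they are separate cultures, so p-values measure the spread between these libraries, which may be technical. Within groups the chi-square of counts per degree of freedom was 6.14 to 22.1, so each library was counted once.

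The 10 genes and all gene lists were chosen with earlier results of these data known. Groups came from the sample titles. The test was edgeR 4.0.16 (R 4.3.3), quasi-likelihood with robust estimation, TMM scaling, filterByExpr and the group as the only term, with Benjamini-Hochberg adjustment at 0.05 over 13084 genes; the common biological coefficient of variation was 6%. The study used DESeq2, which was an alternative here (1.42.0, Wald test). Log2 fold changes are doxycycline-labelled over untreated libraries, SE is the absolute value over the square root of F, and CPM uses TMM-scaled totals. Ratios between genes were taken on counts, without correction for length, with a prior count of 0.5. Lengths, 3′ untranslated regions (from the transcript in which it is longest) and coordinates were from GENCODE M21 (GRCm38), and promoters from RefSeq (GRCm38.p6). Of the tested genes 96.3% had a length and 90.0% a 3′ untranslated region.

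Named were all 10 cytokine genes, every receptor, and of each pathway list the called genes (up to 3) and the 2 with the highest mean CPM. Also named were the 3 genes nearest to each called cytokine gene, of which 1 is not reported here, and fixed markers. Krt19, Adgre1, Cd14, Cd68, Lck, Cd28, Pdgfra, Thpo, Il11, Zfp36, Arid5a, Casp4 and Pycard were named after their values were seen. The scripts were tested on simulated data. Other alternatives were limma 3.58.1 voom, scaling by library size alone, by the upper quartile or by DESeq2 size factors, keeping all genes with a count, requiring 10 counts in each library, the replicate number as a block, a prior count of 2 and leaving out each library.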

Additional observations from a re-analysis of the deposited data

How the results depend on the processing

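The 4 cytokine genes called lower, and 0 called higher, were the counts under every other scaling, filter and test; with 1 library left out the count ran from 2 to 5. It was 2 without untreated replicate 1 or untreated replicate 3 (Csf1 and Csf2 lost), 3 without doxycycline replicate 3 (Csf1 lost) and 5 without doxycycline replicate 1 (Il1a gained). Over all genes, 283 were called lower and 121 higher. Without the filter these were 439 and 210, and the DESeq2 Wald test called 185 higher. With 1 library left out, 116 to 487 were lower and 44 to 269 higher, the lowest counts without untreated replicate 3 and the highest without doxycycline replicate 2. The Il6 log2 fold change ran from -0.83 to 0.24, the last without untreated replicate 1. Without doxycycline replicate 2 the Il1a to Il1rn difference was -0.27 (others up to 1.78) and the Il1b to Il1rn difference -0.29 (others up to 1.72); that library had 0 Il1rn counts. With the replicate number as a block, 4 cytokine genes were lower, 300 of all genes were lower and 118 higher, and no cytokine call changed. Same-numbered libraries share only a number (correlations of their deviations -0.0399, -0.00261 and 0.0185). Other scalings moved the median of all genes to at most -0.0074. Depth limits Il6, Il1b and Il1rn, whose counts per library were 0 to 26.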

Other observations

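Some genes of the pathway lists that were not called with the filter were named after their values were seen. Thpo (thrombopoietin), a related ligand, had 10, 8 and 26 counts in untreated replicates 1 to 3 and 2 in each of the 3 libraries labelled doxycycline, and it was left out by the filter. Without the filter it was called lower (edgeR adjusted p = 0.0312). The values of the groups did not overlap, and those labelled doxycycline were under the floor of 3 counts. Casp4 (caspase-11), a protease of the noncanonical inflammasome, was at 3.78, 4.17 and 4.19 CPM in untreated libraries and at 2.92, 2.84 and 2.4 CPM in the others, and the edgeR adjusted p was 0.0727 for a log2 fold change of -0.57. Pycard (ASC), the inflammasome adaptor, was at 5.42, 8.0 and 6.94 CPM in untreated libraries and at 9.4, 8.86 and 8.64 CPM in the others, and the edgeR adjusted p was 0.111 for a log2 fold change of 0.41. Casp1, which cuts IL-1β, had a log2 fold change of -0.28 (95% interval -0.61 to 0.05).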
